A study of Mus musculus with 12 samples.

Results

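The comparison is between RAW264.7 cells given LPS and IFN-γ for 24 h with the mitochondrial fission inhibitor Mdivi-1 and the same stimulated cells without it. RAW264.7 is a macrophage-like line grown from a mouse tumour. Every culture received 10 ng/mL LPS, a component of the bacterial outer membrane, and 10 ng/mL mouse IFN-γ, in medium with 10% serum, and the treated group also received 50 µM Mdivi-1. The comparison takes 6 of the 12 samples of the series, 3 without and 3 with Mdivi-1. The members are these samples, taken by time and treatment, and all the genes measured in them. Both the comparison and the libraries kept were chosen with earlier results of these data known. The libraries numbered 3 in both groups held almost no messenger RNA, so differences were estimated from numbers 1 and 2 (4 libraries, 2 a group) and number 3 is described apart. All cells had both stimuli, so no value here separates an effect of LPS or IFN-γ from its absence, and no group received Mdivi-1 alone. The labels name no vehicle for the group without Mdivi-1. The labels do not say that the numbers were separate cultures, and the p-values then measure the spread between these libraries only.

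Mitochondria divide when the dynamin-related GTPase Drp1, encoded by Dnm1l, is drawn from the cytosol to receptors on the outer membrane and constricts it. Mdivi-1 was described as an inhibitor of Drp1, and it is also known to slow respiratory complex I. Macrophages that sense LPS and IFN-γ switch on cytokines, chemokines and interferon-stimulated genes, shift toward glycolysis and, as a dividing line, tend to slow their cell cycle.

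Levels are TPM, the usual unit of transcript abundance that corrects for transcript length and library total, divided by a factor for each library so that the median gene above 0 has the same level in all 4 (rescaled TPM). In each pair of values, number 1 stands before number 2. A fold change is the difference of group means of log2(rescaled TPM + 1), Mdivi-1 minus no Mdivi-1, with its standard error (SE) from limma. The added 1 makes the fold change of a gene near or under 1 TPM smaller than the ratio of its levels. A gene was called higher or lower where limma's p-value, adjusted by the Benjamini-Hochberg method over 11073 genes with a mean of at least 1 rescaled TPM, was under 0.05. With 2 libraries a group an exact permutation test cannot give less than 0.333, so every call leans on the variance that limma shares across genes.

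The 4 fitted libraries held 11.8 M to 14.9 M estimated reads (M, mega), of which 10.2 M to 12.3 M fell in genes that are neither structured RNA nor mitochondrial. Structured RNAs took 47.7% and 47.4% of the deposited TPM in cells without Mdivi-1, against 50.3% and 53.6% with it, mitochondrial genes took 5.54% and 5.20% against 6.25% and 6.68%, and all other genes 46.8% and 47.4% against 43.4% and 39.7%. The deposited values of a typical gene are therefore lower with Mdivi-1 before rescaling, with a median log2 fold change of -0.22 over all genes tested against 0.03 after it. The RNA content of the cells and the preparation of the libraries cannot be told apart as sources of that gap. Macrophage markers were at high levels. Cd68, which encodes a lysosomal glycoprotein, stood at 1718 and 1662 rescaled TPM in cells without Mdivi-1, against 2137 and 2381 in cells with it, and Adgre1, which encodes the F4/80 antigen, at 1019 and 920.1 rescaled TPM in cells without Mdivi-1, against 1139 and 1219 in cells with it. Of 13 macrophage markers tested, 1, Cd68, was called higher and none lower, against 3 lower and 0 higher on deposited TPM. Nos2, the inducible nitric oxide synthase that IFN-γ and LPS usually raise strongly, stood at only 1.41 and 1.78 rescaled TPM in cells without Mdivi-1, against 0.895 and 0.901 in cells with it.

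**Figure D1:**
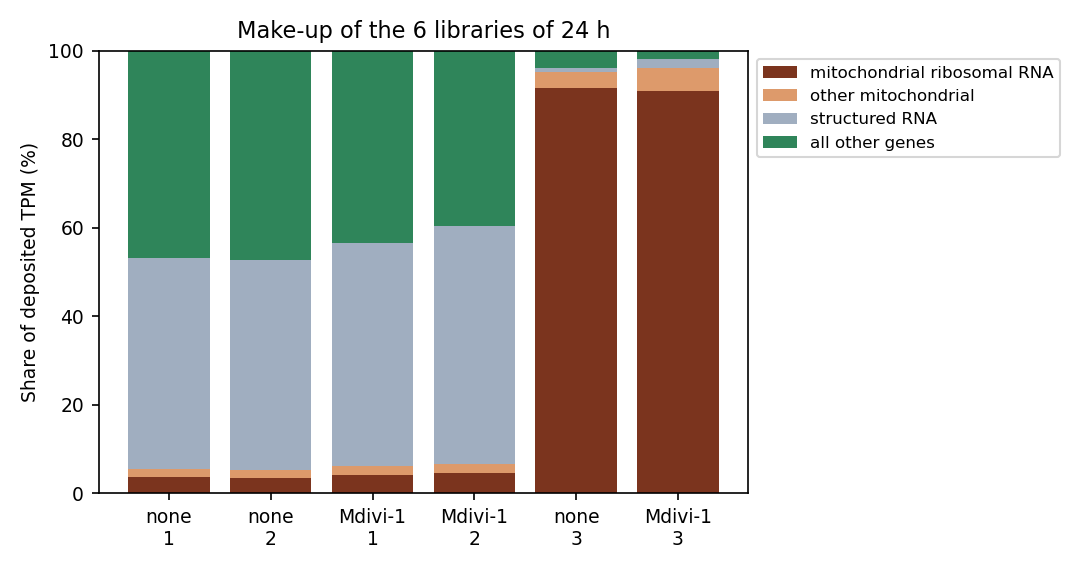
Stacked bars give the share of deposited TPM (%) of mitochondrial ribosomal RNA, other mitochondrial genes, structured RNA and all other genes in the 6 libraries of 24 h, without (none) and with Mdivi-1, by library number. Numbers 1 and 2 keep 39.7% to 47.4% in all other genes, and in number 3 mitochondrial ribosomal RNA takes over 90%.

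With Mdivi-1, cell division genes, histones, collagens and several chemokines were lower by large factors, and a set of well-expressed genes was higher by small ones. Lysosomal, antioxidant, lipid droplet and metabolic genes and the messages of the mitochondrial genome were among the latter. Of the 11073 genes tested, 850 (7.68%) were called lower and 550 (4.97%) higher. Among the 7466 genes with a mean of at least 5 rescaled TPM, 406 (5.44%) were lower and 513 (6.87%) higher. The decreases were the larger: 279 of the lower genes fell by at least 1 on the log2 scale, while 9 of the higher genes rose by as much. The median fold change was -0.81 among the lower and 0.39 among the higher genes. The groups did not overlap for 60% of all genes tested and for 62.6% of those at 5 or more. Lower calls were commonest at low levels, with 12.3% of the genes between 1 and 5 rescaled TPM, and higher calls at high levels, with 17.6% of the genes at 200 or more.

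The balance between the directions depends on the scaling. Without rescaling the counts were 2350 lower and 74 higher of 11105 genes tested. Counts of list members on deposited TPM are to be read beside these. With structured and mitochondrial RNA removed and the rest set to the same sum the counts were 1226 and 247 of 12438. All 850 lower genes were also called lower on the deposited values, whereas 70 of the 550 higher genes were still called higher. Single libraries mattered more for the increases: 287 genes were called higher without the first untreated library, 115 without the second and 201 without the second Mdivi-1 library, against 480 lower without the second untreated library and 559 without the second Mdivi-1 library. With both number 3 libraries in the fit, limma called 0 genes in either direction, and 46 had an unadjusted p under 0.05.

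**Figure D2:**
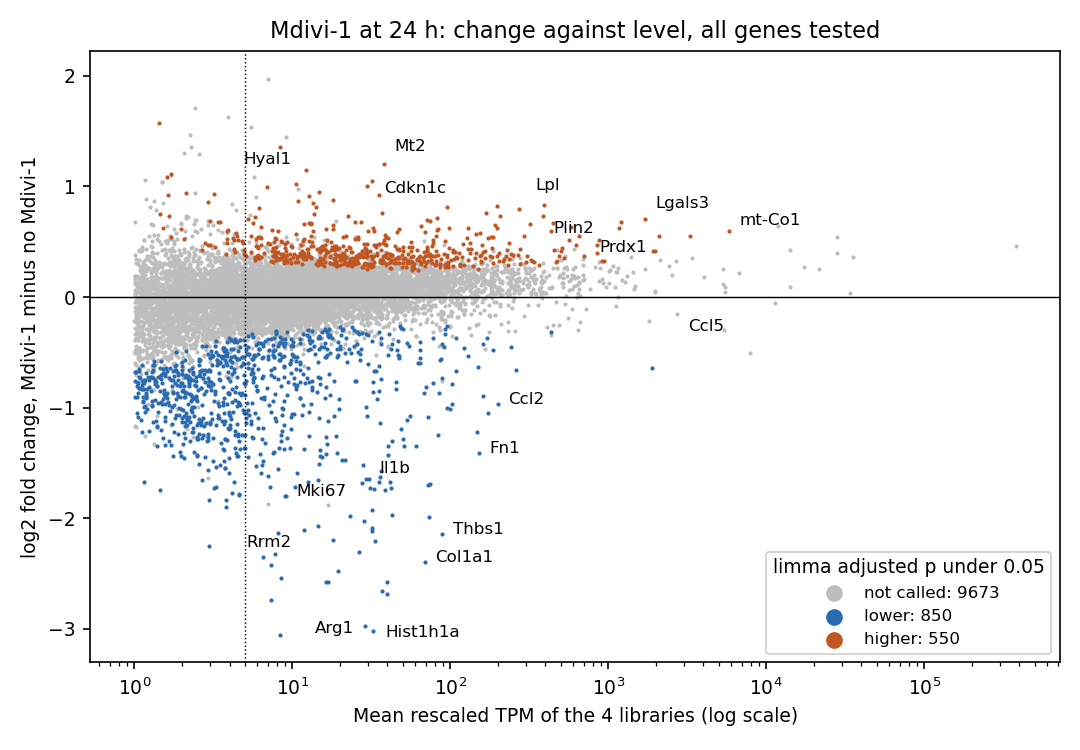
Each point is a gene tested. The horizontal axis is its mean level over the 4 fitted libraries (rescaled TPM, log scale) and the vertical axis its log2 fold change, Mdivi-1 minus no Mdivi-1. Blue points are the 850 genes called lower and orange points the 550 called higher, and the dotted line marks 5 rescaled TPM. The decreases reach -3.05 and the labelled increases stay at or under 1.21.

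The clearest change was in the machinery of cell division. Of 44 genes of G2 and mitosis tested, 43 were called lower and 0 higher, against 7.68% lower among all genes, and their median fold change was -1.26. Mki67, which encodes the proliferation antigen Ki-67, stood at 15.4 and 13.8 rescaled TPM in cells without Mdivi-1, against 3.92 and 3.06 in cells with it. The treated libraries were both far below the untreated ones (log2 fold change -1.80 ± 0.12 (SE), limma adjusted p = 0.000588). Top2a, the topoisomerase that untangles sister chromatids, stood at 12.7 and 10.4 rescaled TPM in cells without Mdivi-1, against 3.12 and 2.51 in cells with it (log2 fold change -1.71 ± 0.13 (SE), limma adjusted p = 0.000841). Cdk1, the kinase that drives entry into mitosis, stood at 7.91 and 6.85 rescaled TPM in cells without Mdivi-1, against 2.88 and 2.70 in cells with it (log2 fold change -1.14 ± 0.10 (SE), limma adjusted p = 0.00149). Members of lists that are named from here on beyond the rule given in the processing notes were chosen after their values were seen. The cyclin partners of Cdk1, Ccnb1 and Ccnb2 stood lower in both treated libraries too, with called fold changes of -1.48 and -1.90. The spindle genes Kif11, Tpx2 and Aurkb and the checkpoint genes Bub1 and Bub1b were also called lower, from -1.51 for Kif11 to -0.96 for Bub1b. Cdc25b, the phosphatase that activates Cdk1, was the single tested member that was not called (-0.37, limma adjusted p = 0.145). Only 6 of the members averaged 5 rescaled TPM or more, so most of these messages were scarce even without Mdivi-1. In bulk RNA, fewer dividing cells and less RNA in each of them cannot be told apart.

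DNA replication genes fell as well, though less evenly. 32 of 44 were called lower and none higher, with a median fold change of -0.71. Without the second Mdivi-1 library 21 were called. Rrm2, the regulated subunit of the reductase that makes deoxynucleotides, fell the most, from 22.2 and 17.7 rescaled TPM in cells without Mdivi-1 to 4.04 and 3.63 in cells with it (log2 fold change -2.11 ± 0.12 (SE), limma adjusted p = 0.000386). The replicative helicase Mcm2 to Mcm7 was called lower in every subunit, from -1.09 for Mcm5 to -0.54 for Mcm3. Ccne1 and Ccne2, the cyclins that start S phase, had fold changes of -1.09 and -1.59. Pcna, the sliding clamp of the polymerases, was the exception at high level: it stood at 126 and 107 rescaled TPM in cells without Mdivi-1, against 112 and 108 in cells with it, and the groups overlapped (limma adjusted p = 0.575). Of 21 DNA repair genes 10 were lower and none higher. Those repair calls rest on all 4 libraries: 3 were left without the first Mdivi-1 library and 0 without any other.

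Replication-dependent histones, whose messages end in a stem-loop in place of a poly(A) tail and are made in S phase, held 11 of the 15 largest decreases among genes of at least 5 rescaled TPM. The libraries were made by depleting ribosomal RNA. 42 of 47 tested were called lower and none higher, with a median fold change of -1.67. Hist1h1a, a linker histone, stood at 59.9 and 56.8 rescaled TPM in cells without Mdivi-1, against 7.14 and 5.61 in cells with it, which is 9.15-fold lower on the ratio of means (log2 fold change -3.02 ± 0.11 (SE), limma adjusted p = 0.000129). Hist1h3b, a core histone H3, stood at 68.4 and 71.3 rescaled TPM in cells without Mdivi-1, against 10.1 and 10.01 in cells with it (log2 fold change -2.68 ± 0.066 (SE), limma adjusted p = 4.66e-05). Hist1h2bl, a core histone H2B, had the lowest fold change of all genes, -3.05, with 18.6 and 12.9 in cells without Mdivi-1, against 1.003 and 0.978 in cells with it. Many histone genes are near-identical copies, so the value of each is uncertain. H2afx, the variant histone that marks broken DNA, stood at 31.2 and 25.7 rescaled TPM in cells without Mdivi-1, against 10.3 and 9.78 in cells with it (log2 fold change -1.41 ± 0.10 (SE), limma adjusted p = 0.000781).

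The brakes on the cell cycle did not move together. Cdkn1c, which encodes the cyclin-dependent kinase inhibitor p57, was among the 15 largest increases. It stood at 20.3 and 20.5 rescaled TPM in cells without Mdivi-1, against 41.9 and 44.9 in cells with it, 2.13-fold higher on the ratio of means (log2 fold change 1.05 ± 0.069 (SE), limma adjusted p = 0.000588). Cdkn2c, which encodes the inhibitor p18, went the other way, from 5.92 and 5.90 rescaled TPM in cells without Mdivi-1 to 1.47 and 1.48 in cells with it (log2 fold change -1.48 ± 0.099 (SE), limma adjusted p = 0.000641). Cdkn1a, which encodes the p21 inhibitor, was not called (-0.17). The D cyclins Ccnd2 and Ccnd3 were lower, at -0.45 and -0.77. Trp53 stood at 17.7 and 16.1 rescaled TPM in cells without Mdivi-1, against 13 and 14 in cells with it and just missed the threshold (limma adjusted p = 0.0579). In the list of CDK inhibitors, D cyclins and p53 targets, 4 of 28 were lower and 3 higher, against 7.68% and 4.97% of all genes tested. On deposited TPM 11 lower and 1 higher were called. None of 26 BCL2 family and cell death genes was called, with fold changes from -0.22 to 0.33. On deposited TPM 7 of them were called lower and 0 higher, beside 2350 lower and 74 higher of all 11105 genes tested there.

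The promoters of these groups were described by their letters, which the comparison did not use. The CHR element TTTGAA, which the DREAM and MuvB complexes bind in cell cycle genes, was searched on both strands in RefSeq windows of 300 bases (250 before to 50 after the start, GRCm38.p6), as was the CCAAT box, bound by NF-Y. Windows matched 8642 of the 11073 genes tested (78.0%), so the shares over all genes tested leave out the others, and a gene with several starts has several windows. The CHR letters were in 76.9% of 39 windows of G2 and mitosis genes, 46.7% of 45 histone windows and 15.9% of 44 replication windows, against 12.5% of the windows of all genes tested and 17.9% of all RefSeq windows. Among all lower genes the share was 20.5% and among all higher genes 10.4%. CCAAT was in 82.1%, 86.7% and 61.4% of the same sets, against 38.1% of all tested. A match is a description of the letters and does not show binding, and in the windows printed next no CHR match overlaps a CCAAT match. The windows of Mki67 (chr7:135716330-135716629, minus strand) and Top2a (chr11:99024140-99024439, minus strand) are shown for the mitosis genes, with CHR and CCAAT matches in capitals, and those of Hist1h2bl (chr13:21716134-21716433, minus strand) and Hist1h1a (chr13:23763418-23763717, plus strand) for the largest decreases, with CCAAT matches in capitals.
Mki67: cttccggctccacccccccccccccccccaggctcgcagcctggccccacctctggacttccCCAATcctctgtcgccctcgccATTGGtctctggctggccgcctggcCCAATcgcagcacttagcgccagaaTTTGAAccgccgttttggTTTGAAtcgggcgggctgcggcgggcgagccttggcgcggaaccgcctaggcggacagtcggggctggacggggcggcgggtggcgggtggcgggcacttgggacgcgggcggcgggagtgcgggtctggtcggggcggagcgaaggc
Top2a: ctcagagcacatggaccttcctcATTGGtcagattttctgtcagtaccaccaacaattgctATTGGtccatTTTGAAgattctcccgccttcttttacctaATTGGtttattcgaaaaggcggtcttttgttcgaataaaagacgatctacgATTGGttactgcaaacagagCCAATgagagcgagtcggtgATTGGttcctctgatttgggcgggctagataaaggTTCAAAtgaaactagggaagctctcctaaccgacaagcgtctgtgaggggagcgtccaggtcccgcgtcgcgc
Hist1h2bl: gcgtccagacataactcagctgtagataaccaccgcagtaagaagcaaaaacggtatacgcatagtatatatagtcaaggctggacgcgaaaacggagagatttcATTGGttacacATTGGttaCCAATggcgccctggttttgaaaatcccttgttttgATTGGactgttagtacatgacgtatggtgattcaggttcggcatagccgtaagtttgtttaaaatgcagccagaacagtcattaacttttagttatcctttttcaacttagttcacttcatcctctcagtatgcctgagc
Hist1h1a: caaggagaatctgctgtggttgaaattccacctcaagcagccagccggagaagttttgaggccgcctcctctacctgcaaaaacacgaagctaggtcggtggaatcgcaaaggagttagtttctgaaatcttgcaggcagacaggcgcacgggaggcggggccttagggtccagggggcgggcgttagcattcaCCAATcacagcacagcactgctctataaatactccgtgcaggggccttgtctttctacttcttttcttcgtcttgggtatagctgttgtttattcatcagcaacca
The mitosis windows were printed only for genes with a CHR element, so its presence in them was set by that choice. Both mitosis windows hold 2 CHR matches, and CCAAT occurs 3 times in Mki67 and 6 times in Top2a. Hist1h2bl has 4 CCAAT matches, beside CHR letters left in lower case, and Hist1h1a has 1.

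**Figure D3:**
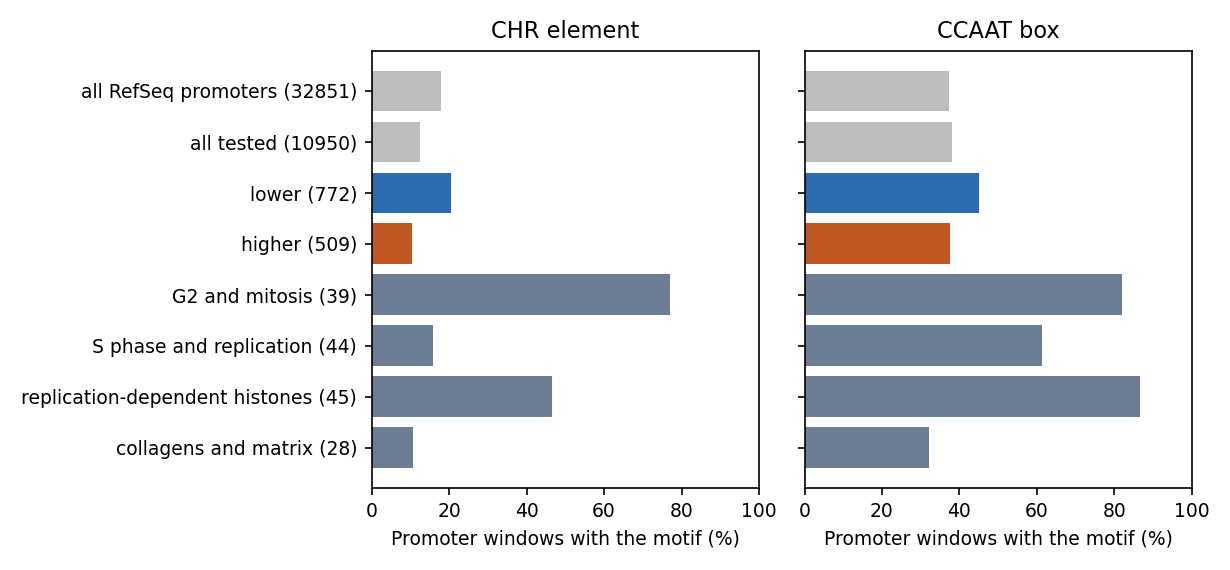
Bars give the share of promoter windows (%, from 0 to 100) that hold the CHR element (left) or a CCAAT box (right) on either strand, with the number of windows in each set in parentheses. Grey bars are the background of all RefSeq windows and of all genes tested, and the G2 and mitosis set reaches 76.9% for the CHR element.

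Extracellular matrix genes formed the second large group of decreases. 30 of 37 collagen and matrix genes were called lower and 1 higher, with a median fold change of -1.10. Col1a1, a chain of type I collagen, stood at 110.3 and 123 rescaled TPM in cells without Mdivi-1, against 26.3 and 17.2 in cells with it (log2 fold change -2.40 ± 0.18 (SE), limma adjusted p = 0.000846). Its partner Col1a2 stood at 52.1 and 56.6 rescaled TPM in cells without Mdivi-1, against 18.6 and 15.3 in cells with it (log2 fold change -1.63 ± 0.10 (SE), limma adjusted p = 0.000565). For both chains the treated libraries lay far below the untreated ones. Thbs1, the matrix glycoprotein thrombospondin-1, stood at 148 and 143 rescaled TPM in cells without Mdivi-1, against 32.2 and 32.4 in cells with it, with almost no spread between libraries of a group (log2 fold change -2.14 ± 0.063 (SE), limma adjusted p = 7.64e-05). Fn1, fibronectin, stood at 204 and 237 rescaled TPM in cells without Mdivi-1, against 91.01 and 74.4 in cells with it (log2 fold change -1.41 ± 0.12 (SE), limma adjusted p = 0.00122). Serpinh1, the collagen chaperone of the endoplasmic reticulum, and Plod2, a collagen lysyl hydroxylase, had fold changes of -1.70 and -1.52. The type IV, V and VI chains tested were lower as well, from -1.56 for Col5a1 to -1.06 for Col4a2. The matrix proteases Mmp9 and Mmp13 were lower (-0.86 and -1.28). Timp2, a protease inhibitor, was the member called higher (0.32, limma adjusted p = 0.0259), but at 0.037 its fold change on deposited TPM was not called.

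Contractile and TGF-β response genes followed the matrix genes. 17 of 23 YAP and TGF-β targets were lower, with a median of -0.77. Acta2, smooth muscle actin, stood at 73.6 and 61.5 rescaled TPM in cells without Mdivi-1, against 34.03 and 24.6 in cells with it (log2 fold change -1.19 ± 0.16 (SE), limma adjusted p = 0.00584). Cyr61 and Ctgf, secreted matrix proteins induced by YAP, had fold changes of -1.27 and -1.04. Id2, an inhibitor of helix-loop-helix factors, was the member called higher, at 253 and 243 rescaled TPM in cells without Mdivi-1, against 375 and 408 in cells with it (log2 fold change 0.66 ± 0.075 (SE), limma adjusted p = 0.00349). These genes moved with a list of fibroblast markers, of which 8 of 9 tested were lower; Col1a1, Col1a2, Col3a1 and Fn1 are in this list and in the matrix list. The summed level of all 14 fibroblast markers was 495 and 541 rescaled TPM in cells without Mdivi-1, against 192 and 158 in cells with it. The macrophage markers summed to 21933 and 21879.8, and to 23189 and 25517 in the same order. Dcn, decorin, stood at 44.8 and 45.3 rescaled TPM in cells without Mdivi-1, against 23.2 and 23.2 in cells with it, and Pdgfra, the PDGF receptor of mesenchymal cells, at 14.1 and 14.7 rescaled TPM in cells without Mdivi-1, against 4.74 and 5.22 in cells with it. None of the fibroblast markers was at 0 in all 4 libraries, though Lum, Postn, Prrx1, Twist2 and Pdgfrb averaged under the limit of 1. Whether cells other than macrophages carry part of this signal was not tested.

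**Figure D4:**
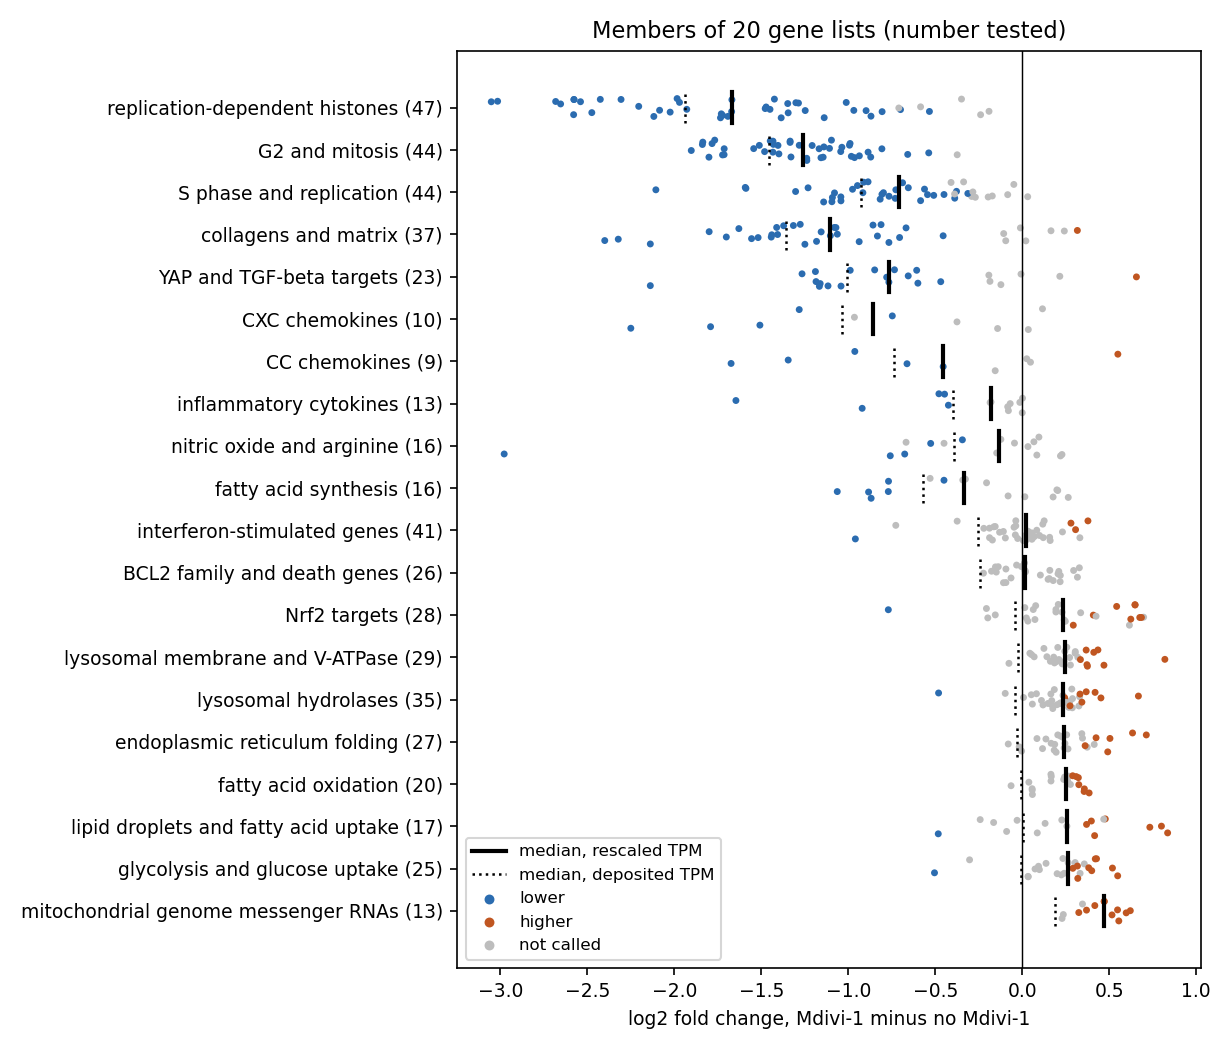
Each point is a tested member of a gene list (number tested in parentheses), placed by its log2 fold change, Mdivi-1 minus no Mdivi-1. Blue members were called lower, orange higher and grey were not called. Solid bars are list medians on rescaled TPM and dotted bars on deposited TPM, which lie about 0.25 further left for most lists. The medians of the upper lists, down to fatty acid synthesis, are below 0 on both scales. Those of the lists from Nrf2 targets down are above 0 on rescaled TPM and near 0 on deposited TPM, except the messenger RNAs of the mitochondrial genome at 0.19.

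Of the inflammatory signals, interleukin-1 and several chemokines were lower and most others were not called. Il1b, the pyrogenic cytokine, stood at 47.5 and 46.4 rescaled TPM in cells without Mdivi-1, against 12.4 and 16.6 in cells with it, which is 3.25-fold lower (log2 fold change -1.65 ± 0.13 (SE), limma adjusted p = 0.000968). Tnf was lower by less, at 60.9 and 64.8 rescaled TPM in cells without Mdivi-1, against 41.4 and 50.7 in cells with it (log2 fold change -0.45 ± 0.10 (SE), limma adjusted p = 0.0385). Il1a and the receptor antagonist Il1rn were also lower, at -0.48 and -0.42, and so was Csf1, the macrophage growth factor, at -0.92. In all, 5 of 13 cytokines tested were lower and none higher, with 3 called without the first untreated library and 2 without the second. Il6 averaged under the limit of 1 rescaled TPM, with 0.877 and 0.809 in cells without Mdivi-1, against 0.157 and 0.205 in cells with it, and was not tested, as was Il10, with 0.433 and 0.469 in cells without Mdivi-1, against 0.292 and 0.379 in cells with it. Acod1, which makes itaconate, stood at 477 and 494 rescaled TPM in cells without Mdivi-1, against 358 and 463 in cells with it. It was not called (limma adjusted p = 0.227), but on deposited TPM it was called lower at -0.54 (limma adjusted p = 0.00144). Cd86, a costimulatory ligand, was not called on either scale. It had 6.86 and 7.11 rescaled TPM in cells without Mdivi-1, against 6.85 and 9.29 in cells with it. Saa3, the acute-phase protein of macrophages, was chosen after its values were seen as the most abundant lower gene, at 2191 and 2382 rescaled TPM in cells without Mdivi-1, against 1305 and 1647 in cells with it (log2 fold change -0.64 ± 0.13 (SE), limma adjusted p = 0.0257).

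Among chemokines, several ligands of the monocyte receptor Ccr2 and the neutrophil receptor Cxcr2 were lower, while Ccl4 and Ccl5 were not. Ccl2, the main monocyte attractant, stood at 247 and 282 rescaled TPM in cells without Mdivi-1, against 116 and 157 in cells with it (log2 fold change -0.96 ± 0.14 (SE), limma adjusted p = 0.00937). Its neighbours in sequence Ccl7 and Ccl12 had fold changes of -1.35 and -1.67. Ccl6 and Ccl9 were lower by 0.66 and 0.45 on the log2 scale. Ccl5 was not called, at -0.16, and Ccl4 was called higher, with 69.9 and 60.5 in cells without Mdivi-1, against 88.2 and 104 in cells with it (0.55, limma adjusted p = 0.0214), a call lost without the second untreated or the second Mdivi-1 library. Cxcl1, Cxcl2 and Cxcl5, which recruit neutrophils through Cxcr2, were lower at -1.28, -0.75 and -2.25. Cxcl10, an interferon-induced attractant of T cells, stood at 16.9 and 27.7 rescaled TPM in cells without Mdivi-1, against 6.02 and 8.03 in cells with it (log2 fold change -1.51 ± 0.23 (SE), limma adjusted p = 0.00957). Of the interferon-stimulated genes tested, 1 of 41 was lower and 3 were higher, against 7.68% and 4.97% of all genes tested. Their median was 0.023. This depends on the scaling. On deposited TPM 2350 of all 11105 genes tested were lower, with a median of -0.22 over all genes. There the interferon-stimulated genes had a median of -0.25, with 23 lower and 0 higher. Of the higher ones, Ifit2, which binds viral RNA, stood at 229 and 238 rescaled TPM in cells without Mdivi-1, against 288 and 320.1 in cells with it (0.38, limma adjusted p = 0.0270).

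Genes of NF-κB, the factor family that LPS activates, and of prostaglandin synthesis were in part lower. 5 of 20 NF-κB subunits and feedback genes were lower and none higher, against 7.68% of all genes lower, and on deposited TPM 12 lower and 0 higher were called. The lower genes include Nfkbiz, a nuclear cofactor for secondary response genes, at -0.52 and Nfkb1 at -0.27. Without the second untreated library 1 of them was called, and 3 without the first library of either group. Il1r1, the receptor of interleukin-1, was lower, at -1.30. Tlr4, the LPS receptor, stood at 21.9 and 21.9 rescaled TPM in cells without Mdivi-1, against 24.9 and 25.9 in cells with it and was not called, and Ifngr1, a chain of the IFN-γ receptor, was called higher at 0.27, which turned to -0.0031 on deposited TPM. Ptgs2 and Ptgs1, the inducible and the constitutive cyclooxygenase, were lower at -1.44 and -1.36, as was Ptges, the terminal prostaglandin E synthase, at -0.76. Alox5ap, which presents arachidonate to 5-lipoxygenase, was called higher at 0.37. In that list 4 of 12 were lower and 1 higher, against 5 lower and 0 higher on deposited TPM.

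Both arginases, which turn arginine into ornithine and urea, were lower. Arg1, the cytosolic arginase, stood at 62.2 and 41.2 rescaled TPM in cells without Mdivi-1, against 6.99 and 4.37 in cells with it, the largest decrease of any gene outside the histones (log2 fold change -2.98 ± 0.24 (SE), limma adjusted p = 0.00105). Both treated values were far under both untreated ones, a gap much wider than the one between the untreated libraries. Arg2, its mitochondrial relative, was lower at -0.68, as were the arginine carriers Slc7a1 and Slc7a2 at -0.53 and -0.76. Nos2, which competes for the same substrate, was not called (-0.45, limma adjusted p = 0.105). On deposited TPM Nos2 was called lower at -0.60 (limma adjusted p = 0.0358). Mrc1, the mannose receptor, often paired with Arg1 as a marker of alternative activation, went the other way. It stood at 18.3 and 15.2 rescaled TPM in cells without Mdivi-1, against 30.2 and 26.7 in cells with it (log2 fold change 0.73 ± 0.11 (SE), limma adjusted p = 0.00850).

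**Figure D5:**
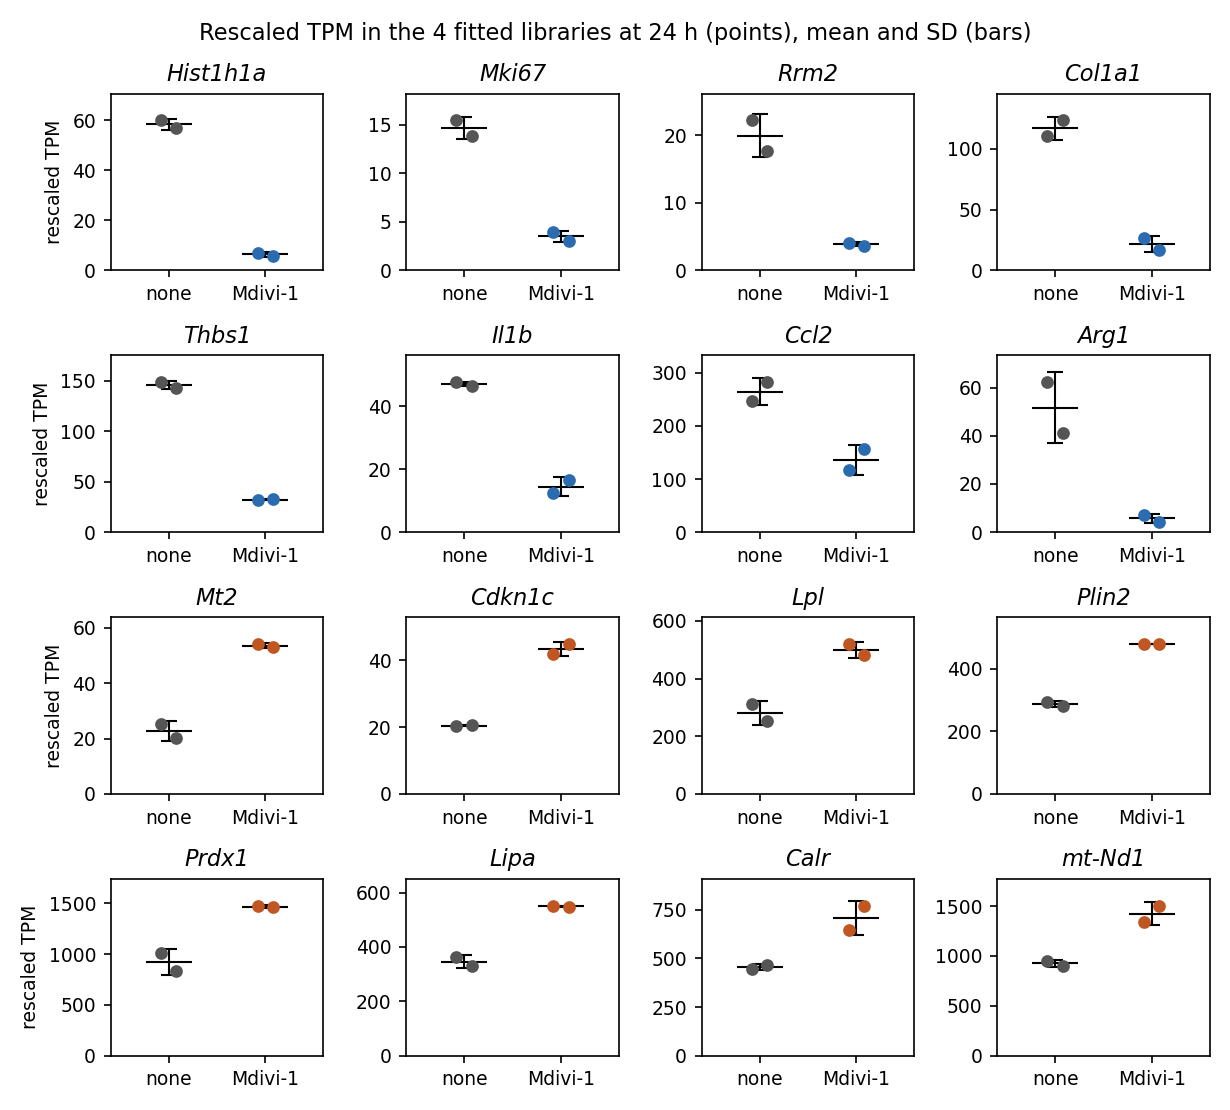
Each panel shows the rescaled TPM of a gene in the 4 fitted libraries (points, axis from 0), with the mean and SD of each group (bars, n = 2). Grey points are cells without Mdivi-1, blue points a gene called lower with it and orange points a gene called higher. The genes of the 16 panels were picked among those called, and in none of the panels do the groups overlap. The groups did not overlap for 60% of all genes tested.

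Fatty acid synthesis genes were in part lower, while genes of lipid droplets and fatty acid uptake were in part higher. 6 of 16 fatty acid synthesis genes were lower and none higher. Fasn, the fatty acid synthase, stood at 12.3 and 12.3 rescaled TPM in cells without Mdivi-1, against 6.90 and 5.59 in cells with it (log2 fold change -0.88 ± 0.10 (SE), limma adjusted p = 0.00367). Scd2 and Scd1, the desaturases that make oleate, were lower at -0.77 and -0.87, as were Fads2, a desaturase of polyunsaturated fatty acids, at -1.06, and Srebf1, the transcription factor of the pathway, at -0.45. Of 17 lipid droplet and uptake genes, 7 were higher and 1 lower, against 4.97% higher among all genes. Lpl, the lipase that frees fatty acids from lipoproteins, stood at 311 and 252 rescaled TPM in cells without Mdivi-1, against 519.8 and 481 in cells with it (log2 fold change 0.84 ± 0.11 (SE), limma adjusted p = 0.00624). Plin2, the coat protein of lipid droplets, stood at 295 and 281 rescaled TPM in cells without Mdivi-1, against 479.6 and 479.9 in cells with it (log2 fold change 0.73 ± 0.069 (SE), limma adjusted p = 0.00175). Fabp4 and Fabp5, carriers of fatty acids, were higher at 0.80 and 0.40. Pparg, the nuclear receptor that drives Lpl, Fabp4 and Plin2, stood at 4.18 and 5.41 rescaled TPM in cells without Mdivi-1, against 7.93 and 7.95 in cells with it (log2 fold change 0.63 ± 0.12 (SE), limma adjusted p = 0.0185). Acsl1, which activates fatty acids, was the lower member, at -0.48. The list median was 0.26 and on deposited TPM 0.0062, where 3 members were called higher, Lpl, Plin2 and Fabp4. Without the second untreated library 3 members were called higher on the rescaled values.

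Lysosomal genes were in part higher by small steps on the rescaled values. 8 of 35 hydrolases and 8 of 29 membrane and proton pump genes were called higher, against 4.97% of all genes tested and 13.9% and 17.6% of those at 50 to 200 and at 200 or more rescaled TPM. Their medians were 0.23 and 0.24 and turned to -0.04 and -0.024 on deposited TPM. On that scale 1 gene of each list was called higher, Lipa and Atp6v0d2. The calls also lean on single libraries: without the second untreated library 1 of each list was called, and without the first 4 of each. Lipa, the acid lipase that splits cholesteryl esters in the lysosome, stood at 364 and 329 rescaled TPM in cells without Mdivi-1, against 552 and 548 in cells with it (log2 fold change 0.67 ± 0.079 (SE), limma adjusted p = 0.00385). Atp6v0d2, a V-ATPase subunit of macrophages and osteoclasts, stood at 155 and 131 rescaled TPM in cells without Mdivi-1, against 264 and 239.7 in cells with it (log2 fold change 0.82 ± 0.099 (SE), limma adjusted p = 0.00427). Hyal1, the lysosomal hyaluronidase, was in neither list and had the second largest increase of a named gene of at least 5 rescaled TPM, with 6.61 and 7.90 in cells without Mdivi-1, against 17.1 and 17.4 in cells with it (log2 fold change 1.15 ± 0.094 (SE), limma adjusted p = 0.00119). Ctsc, the protease that activates granule enzymes, was the lower hydrolase, at -0.48. The cholesterol handling genes Npc1, Nceh1 and Pltp were higher too, at 0.37, 0.61 and 0.43, while Abca1, the efflux pump, was lower at -0.26. In the cholesterol efflux list 4 of 17 genes were higher and 3 lower. Nceh1 kept its call on deposited TPM at 0.34, while Npc1 and Pltp, at 0.10 and 0.15, did not. The lysosomal E-box CACGTGAC, to which TFEB binds, was in 20% of 30 hydrolase windows and 18.8% of 32 membrane gene windows, against 4.39% of all tested and 3.73% of all higher genes.

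Metal binding and antioxidant genes held several of the largest increases. Mt2, a metallothionein that binds zinc and copper, had the largest increase of a named gene of at least 5 rescaled TPM, from 25.3 and 20.3 rescaled TPM in cells without Mdivi-1 to 54.1 and 53 in cells with it (log2 fold change 1.21 ± 0.11 (SE), limma adjusted p = 0.00145). Its neighbour Mt1 stood at 54.3 and 53.1 rescaled TPM in cells without Mdivi-1, against 89.7 and 86.2 in cells with it (log2 fold change 0.70 ± 0.064 (SE), limma adjusted p = 0.00158). Slc30a1, the zinc exporter of the plasma membrane, was the other member called higher, at 0.40. Of 28 targets of the oxidant-responsive factor Nrf2, 8 were higher and 1 lower, against 4.97% and 7.68% of all genes tested. At 50 to 200 and at 200 or more rescaled TPM, 13.9% and 17.6% of all genes were higher. The median of the Nrf2 targets was 0.24 (-0.044 on deposited TPM, with 6 still called higher). Without the second untreated library 4 were called, and 5 without the first Mdivi-1 library. Prdx1, an abundant peroxiredoxin, stood at 1012 and 834 rescaled TPM in cells without Mdivi-1, against 1476 and 1460.2 in cells with it (log2 fold change 0.68 ± 0.11 (SE), limma adjusted p = 0.0127). Srxn1, which repairs peroxiredoxins, and Gclm, a subunit of the enzyme that starts glutathione synthesis, were higher at 0.68 and 0.65. Taldo1, Pgd and G6pdx, of the pentose phosphate pathway that supplies NADPH, were higher at 0.65, 0.41 and 0.29. Nqo1, a quinone reductase and a much used Nrf2 marker, was not called (0.70, limma adjusted p = 0.196). Cat, catalase, and Akr1b8, an aldose reductase, were outside that list and among the 15 largest increases, at 0.82 and 1.01. Me1, the malic enzyme, was the Nrf2 target called lower, and it also belongs to fatty acid synthesis.

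The windows of the 2 largest named increases are shown with the metal response element core TGCNCNC (chosen after the values were seen), the antioxidant element TGACNNNGC and CCAAT in capitals on either strand, for Mt2 at chr8:94172368-94172667 and Hyal1 at chr9:107576700-107576999, both on the plus strand.
Mt2: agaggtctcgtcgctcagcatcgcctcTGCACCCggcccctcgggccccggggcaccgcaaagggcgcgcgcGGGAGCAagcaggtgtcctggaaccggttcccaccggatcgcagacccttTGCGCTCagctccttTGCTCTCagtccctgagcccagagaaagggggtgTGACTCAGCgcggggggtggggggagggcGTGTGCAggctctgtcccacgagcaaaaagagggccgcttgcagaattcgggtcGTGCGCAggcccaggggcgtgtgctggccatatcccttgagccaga
Hyal1: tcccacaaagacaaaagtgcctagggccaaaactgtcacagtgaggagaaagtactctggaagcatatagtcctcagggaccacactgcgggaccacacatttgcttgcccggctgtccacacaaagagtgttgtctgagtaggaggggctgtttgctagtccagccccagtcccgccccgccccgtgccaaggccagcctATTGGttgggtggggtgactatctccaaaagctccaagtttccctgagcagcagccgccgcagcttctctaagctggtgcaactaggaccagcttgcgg
Mt2 holds 6 matches of the metal core, a short motif that 59.4% of the windows of all genes tested also hold, and 1 of the antioxidant element, which overlaps a match of the AP-1 letters TGANTCA. Hyal1 holds neither of the first pair. The antioxidant element was in 31.2% of 32 windows of Nrf2 targets, 19.1% of those of all higher genes, 13.5% of those of all lower genes and 14.5% of those of all genes tested.

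Some folding genes of the endoplasmic reticulum were higher, and genes of the integrated stress response were called in both directions on the rescaled values. 6 of 27 folding genes were higher and none lower, with a median of 0.24 (-0.031 on deposited TPM, with 2 called higher). Of all genes at 50 to 200 and at 200 or more rescaled TPM, 13.9% and 17.6% were called higher. Without the first untreated library 3 were called and without the second 1, against 10 without the first Mdivi-1 library. Calr, the lectin chaperone calreticulin, stood at 443 and 467 rescaled TPM in cells without Mdivi-1, against 648 and 771 in cells with it (log2 fold change 0.63 ± 0.10 (SE), limma adjusted p = 0.0117). Sdf2l1, a partner of the chaperone BiP, and Hspa5, which encodes BiP, were higher at 0.71 and 0.49, as was Xbp1, a transcription factor of this response, at 0.42. In the integrated stress response, which is run by Atf4, 5 of 29 were higher and 5 lower, against 4.97% and 7.68% of all genes tested. On deposited TPM 13 of its genes were lower and 1 higher, beside 2350 lower and 74 higher of all 11105 genes tested there. With structured and mitochondrial RNA removed 8 of its genes were lower and 2 higher. Atf3 and Ddit3, stress-induced transcription factors, and Trib3, a pseudokinase, were higher at 0.63, 0.47 and 0.45. Phgdh and Psat1, which make serine, and the amino acid carriers Slc7a5 and Slc38a2 were lower at -1.09, -0.64, -1.19 and -0.59.

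Mitochondria-encoded messages were higher. 10 of the 13 messenger RNAs of the mitochondrial genome were called higher and none lower, with a median of 0.47, and on deposited TPM the median was 0.19 with 5 called. Without the first untreated library 2 were called and without the second 0. mt-Nd1, a subunit of complex I, stood at 951 and 898 rescaled TPM in cells without Mdivi-1, against 1345 and 1504 in cells with it (log2 fold change 0.62 ± 0.092 (SE), limma adjusted p = 0.00935). mt-Co1, the catalytic subunit of complex IV, stood at 4730.5 and 4462 rescaled TPM in cells without Mdivi-1, against 6588 and 7337 in cells with it (log2 fold change 0.60 ± 0.12 (SE), limma adjusted p = 0.0240). Mitochondrial ribosomal RNA was higher in the same libraries, at 3.68% and 3.37% of deposited TPM in cells without Mdivi-1, against 4.09% and 4.56% with it, as was the structured RNA share, and the part of this shift in the messages was not tested. Among nuclear genes of the same complexes, 4 of 37 complex I subunits and 3 of 35 subunits of complexes III, IV and V were called higher and none lower, near the 6.62% and 13.9% of all genes at 10 to 50 and at 50 to 200 rescaled TPM. Their medians were 0.19 and 0.17, and on deposited TPM -0.067 and -0.11 with 0 and 0 called higher.

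Genes of the fission and fusion machinery were called about as often as all genes tested, of which 12.6% were called in either direction. Dnm1l, which encodes Drp1, the target Mdivi-1 was named for, stood at 22.7 and 24.5 rescaled TPM in cells without Mdivi-1, against 25.6 and 26.97 in cells with it (log2 fold change 0.15 ± 0.073 (SE), limma adjusted p = 0.233). The treated values were slightly above the untreated ones and the difference was not called, which bears on the message only and not on the protein or its activity. The Drp1 receptors Fis1, Mff and Mief1 were not called, at 0.15, 0.21 and 0.13, and all of these and Dnm1l were below 0 on deposited TPM. Of the fusion GTPases, Mfn2 was called higher at 0.28, and on deposited TPM it was at 0.014 and not called. Mtfr2, a fission regulator, was lower at -0.84. In all, 1 of 21 was lower and 2 were higher, against 7.68% and 4.97% of all genes tested. On deposited TPM 1 was lower and 0 higher.

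Genes of glycolysis and of fatty acid oxidation were in part higher on the rescaled values. 9 of 25 glycolysis genes were higher and 1 lower, with a median of 0.26. For oxidation 7 of 20 genes were higher and none lower, with a median of 0.25. The share called higher was 4.97% of all genes tested. By level it was 6.62% at 10 to 50, 13.9% at 50 to 200 and 17.6% at 200 or more rescaled TPM. On deposited TPM the medians were -0.0087 for glycolysis and -0.0077 for oxidation, with 1 glycolysis gene, Pgk1, and 0 oxidation genes called higher. Without the second untreated library 1 glycolysis gene and 0 oxidation genes were called higher, and without the first 2 and 1. Pgk1, the kinase that makes the first ATP of the pathway, stood at 242 and 236 rescaled TPM in cells without Mdivi-1, against 344 and 356 in cells with it (log2 fold change 0.55 ± 0.067 (SE), limma adjusted p = 0.00447). Cpt1a, which admits long-chain fatty acids to mitochondria, stood at 38.2 and 35.99 rescaled TPM in cells without Mdivi-1, against 49.01 and 48.4 in cells with it (log2 fold change 0.38 ± 0.066 (SE), limma adjusted p = 0.0152). Hif1a, the oxygen-sensing factor that drives many glycolysis genes, was lower, at 44.6 and 46.6 rescaled TPM in cells without Mdivi-1, against 25.7 and 27.99 in cells with it (log2 fold change -0.74 ± 0.072 (SE), limma adjusted p = 0.00201). Slc2a6, a glucose carrier induced by LPS, was the lower glycolysis gene, at -0.50.

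The other genes with the largest increases have varied functions. Ednrb, a receptor for endothelin, had 4.67 and 3.89 in cells without Mdivi-1, against 8.96 and 10.1 in cells with it (0.998, limma adjusted p = 0.00270). Emp1, a membrane protein of the epithelial membrane protein family, had 24.7 and 23.8 in cells without Mdivi-1, against 45.3 and 48.4 in cells with it (0.92, limma adjusted p = 0.000846). Entpd1, which encodes CD39, the ectoenzyme that removes extracellular ATP, had 8.52 and 8.52 in cells without Mdivi-1, against 16.4 and 17.5 in cells with it (0.91, limma adjusted p = 0.00114). Tmem154, Spaca9 and Aph1c, the last a subunit of γ-secretase, were higher at 0.88, 0.85 and 0.82. Neat1, the scaffold RNA of paraspeckles, was at 0.76, and on deposited TPM its 0.48 was not called. Lgals3, galectin-3, a lectin abundant in macrophages, stood at 1343 and 1239 rescaled TPM in cells without Mdivi-1, against 2111 and 2103 in cells with it (log2 fold change 0.71 ± 0.089 (SE), limma adjusted p = 0.00487). Among the decreases, Gas1, a growth arrest gene of the cell surface, had 11.4 and 11.7 in cells without Mdivi-1, against 1.42 and 1.51 in cells with it (-2.35, limma adjusted p = 0.000129), and Col3a1 had 14.3 and 12.99 in cells without Mdivi-1, against 2.52 and 1.43 in cells with it (-2.32, limma adjusted p = 0.000846).

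The libraries numbered 3 hold little that can be set beside this. Mitochondrial ribosomal RNA took 91.6% of deposited TPM in the untreated and 90.8% in the Mdivi-1 library, and genes that are neither structured nor mitochondrial had 0.730 M and 0.313 M estimated reads. Olfactory, vomeronasal and trace amine receptors, receptors of sensory neurons, were above 0 in 93.3% and 82.0% of cases, against 3.40% to 4.13% in the fitted libraries. Of the 11073 genes tested, 821 were above 0 in both with a mean of at least 0.5 rescaled TPM, a limit chosen after seeing the data. Their rescaled ratio, Mdivi-1 over none, was above 1 for 82.5% of them, with a median of 0.90 on the log2 scale. It was below 1 for 29.5% of 44 genes called lower in numbers 1 and 2 and for 12.2% of 98 called higher, against 17.4% of all 821. The direction rests on the scaling of this pair. The untreated library was divided by 1.53 and the Mdivi-1 library by 0.652, factors set over 26030 genes above 0 in both. Before it, the median deposited TPM of all genes tested was 0.250 without and 0.114 with Mdivi-1. With 1 library a group there is no test of these values.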

How the data were processed

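The authors sequenced libraries made from 100 ng of total RNA after ribosomal RNA depletion and deposited TPM (length-corrected transcript abundance) per mouse Ensembl gene, per the labels. The submitters' processing notes name hg19, a human build, although 99.5% of the 49585 IDs are in mouse GENCODE; no aligner or counter is named there. TPM keep no depth: reads were estimated from TPM and exon length as a description only, since 86.2% to 86.7% of low values in the fitted libraries were whole multiples of a read within 0.02. TPM were divided by a median-of-ratios factor and log2(value + 1) was fitted with limma 3.58.1 (R 4.3.3, eBayes with trend) over genes of mean at least 1; summaries used Python 3.11.15. The steps were tested on simulated data. Named genes were the 15 largest called changes a direction at a mean of at least 5 whose groups did not overlap (clone names and small structured RNAs left out), preset cytokine, macrophage and Dnm1l genes, and up to 4 leaders a list. Members, libraries kept and 68 lists were chosen with earlier results of these data known. Promoter windows and coordinates are from RefSeq GRCm38.p6. Other settings tried were 14 chosen at the outset and 1 added after seeing the data. Some results are not reported here.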

Additional observations from a re-analysis of the deposited data

Results flagged for a closer look

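The libraries numbered 3 carry a signal outside the measured differences: mitochondrial ribosomal RNA took 91.6% of deposited TPM in the library without Mdivi-1 and 90.8% in the library with it. In the 4 fitted libraries it took 3.37% to 4.56%. The cause was not tested. Groups of 2 or 3 libraries are too small for a test of a single library that stands apart.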

How the results depend on the processing

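In the fit of all 6 libraries 607 of the 649 lower and 504 of the 538 higher genes tested there kept their sign, and on deposited TPM 97.1% of the higher genes did; in every other setting run, each lower and each higher gene that was tested kept it. The counts of lower and higher genes were 850 and 550. They were 2350 and 74 on deposited TPM, 1226 and 247 with structured RNA and mitochondrial genes removed, 435 and 595 with a filter at a mean of 5 (fewer genes tested), 223 and 50 without a filter, 0 and 0 with all 6 libraries, 16 and 0 with the 96 h libraries added to the fit, and 804 and 268 without the intensity trend. The scaling over genes of mean at least 5, added after seeing the data, gave 958 and 340. Other pseudocounts gave 831 and 539 (0.1) and 849 and 551 (5). Of the genes named, Atf4 (-0.00095), Cd86 (-0.078), Dnm1l (-0.12), Fis1 (-0.13), Ifngr1 (-0.0031), Mff (-0.058), Mief1 (-0.13) and Tlr4 (-0.063) turned below 0 on deposited TPM. With all 6 libraries Ccl4 turned to -0.57, Ccl5 to 0.12, Ccl9 to 0.10, Cdkn1a to 0.39, Il1rn to 0.046, Tnf to 0.17 and Tubb3 to 0.086. Leaving out 1 library put Cd86 at -0.021 to 0.37 and Pcna at -0.20 to 0.029. It gave 480 to 639 lower and 115 to 396 higher genes, with fewer samples in the fit; the lone sample left in a group was taken to vary like the other group. Of 181 genes named and tested, 53 lost their call without the second untreated library, 36 without the second Mdivi-1 library, 29 without the first untreated and 28 without the first Mdivi-1 library. With replicate number as a block the counts were 1123 and 890; the numbers are not known to pair the libraries (r = 0.0097 between same-numbered deviations over 2 pairs). The cause of the other shifts was not tested. TPM hold no depth, and genes at 1 to 5 rescaled TPM had a median SE of 0.13, against 0.077 at 10 to 50.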

Other observations

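Further genes outside the lists described were called; apart from the higher ones and Hmgb2 they were chosen after their values were seen. H19, an imprinted fetal RNA, stood at 13.7 and 13.8 rescaled TPM in cells without Mdivi-1, against 2.85 and 1.94 in cells with it (log2 fold change -2.14 ± 0.13 (SE), limma adjusted p = 0.000581). Hmga2, a chromatin protein of fetal and tumour cells, and Egfr, the epidermal growth factor receptor, had fold changes of -1.13 and -1.10. Of 24 integrin and adhesion genes 6 were lower and 4 higher, against 7.68% and 4.97% of all genes tested. With deposited TPM 10 lower and 1 higher, Plau, were called. The cell adhesion genes Ncam1, Parva and Vcam1 were lower at -1.37, -1.10 and -0.96, and Plau and Plaur, the urokinase protease and its receptor, Cd9, a tetraspanin, and Alcam were higher at 0.64, 0.52, 0.48 and 0.30. In the cytoskeleton list Fscn1, the actin bundler fascin, was lower at -1.65. The neural and embryonic tubulins Tubb3 and Tubb2b were lower at -0.82 and -0.65, while the tubulins Tuba4a and Tubb2a were called higher at 0.42 and 0.34. Tuba4a and Tubb2a stood at 0.15 and 0.057 on deposited TPM and were not called there. Chromatin genes had 8 lower of 28, among them Hmgb2, a DNA-bending protein of dividing cells, at -0.96. Cx3cr1, the fractalkine receptor of monocytes, was lower at -1.21. The part of any other cell type in these values was not tested.

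Of 20 heme and iron genes 6 were higher and 2 lower, against 4.97% and 7.68% of all genes tested. With deposited TPM 2 higher and 3 lower were called. Ncoa4, which carries ferritin to the lysosome, Steap3, a ferrireductase, and Tfrc, the transferrin receptor, were higher at 0.58, 0.45 and 0.38. Lcn2, which keeps iron from bacteria, and Steap4, an inflammatory ferrireductase, were lower at -0.73 and -0.91. Ch25h, which makes 25-hydroxycholesterol in response to interferon, was lower at -1.45. Of the immediate early genes, Egr1, Fosl1 and Fosl2 were lower at -0.95, -0.87 and -0.79, and Dusp1, a phosphatase of stress kinases, was higher at 0.40. The small heat shock genes Hspb1, Hspb8 and Cryab were lower at -0.77, -0.61 and -0.84, and Hspa1a was higher at 0.62. Of 21 heat shock chaperones 3 were lower and 1 higher, against 7.68% and 4.97% of all genes tested. The higher call was lost on deposited TPM, where 7 lower and 0 higher were called, beside 2350 lower of all 11105 genes tested there. On the rescaled values 3 of 75 ribosomal proteins and 4 of 31 proteasome genes were higher and none lower. That compares with 4.97% of all genes tested, and 13.9% and 17.6% at 50 to 200 and at 200 or more rescaled TPM. Their medians of 0.16 and 0.18 were -0.12 and -0.10 on deposited TPM, with 7 and 2 called lower and 0 higher. Ribosome biogenesis had 1 lower gene, Srm, of 33, against 16 on deposited TPM and 5 with structured and mitochondrial RNA removed.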
